A study of Sus scrofa with 63 samples.

Results

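The complement genes C1S, C2, C3, C5, C6, C7, C9, CFB and CFI were followed in jejunum, a part of the small intestine, of fetal pigs. Every array probe whose gene name in the scanner output was one of these symbols, in any letter case, was included, with 1 further probe designed on a C9 transcript. This gave 25 probes for 9 genes of 60305 probes on the array, and all 25 passed the filter on dim probes that 40515 probes passed. C3 had 6 probes, C1S 4, C2 and C6 3 each, C5, C7, CFB and CFI 2 each and C9 1.

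Complement is a cascade of plasma and tissue proteases that marks and lyses microbes. C1S and C2 act in its classical branch and CFB in its alternative branch, both branches cleave C3, and cleavage of C5 starts the assembly of C6, C7, C8 and C9 into a pore in the target membrane. CFI is a protease that inactivates cleaved C3 and C4 and so limits the cascade. The liver makes most of the plasma proteins of the cascade, while epithelial cells, fibroblasts and macrophages of the gut make several of them locally.

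The study compared 2 ages in late gestation, day 90 and day 110, in fetuses of 2 pig breeds, Large White (LW) and Meishan (MS), and of their reciprocal crosses. LWMS fetuses had an LW sire and an MS sow, and MSLW fetuses had an MS sire and an LW sow. All 63 fetuses were males, and jejunum RNA of each was hybridised to its own one-colour array. At day 90 there were 9 LW, 8 MSLW, 9 LWMS and 6 MS fetuses, and at day 110 there were 9 LW, 6 MSLW, 9 LWMS and 7 MS fetuses. Each sow received mixed LW and MS semen, so that a litter held purebred and crossbred fetuses. Which sow carried which fetus did not enter the fits, litter mates therefore counted as independent, and p-values measure the spread between fetuses. Fetuses of a litter shared their age and the breed of the sow. For age, sow breed and MS against LW the p-values can therefore be too small.

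Signals are given as log2 of the background-corrected spot intensity set against the array's own 75th percentile, so that a value of 0 stands for a spot at that percentile. A level can be compared between fetuses for 1 probe, but not between probes. Each gene is described by the brightest of its probes unless another is named, and its other probes are counted beside it. Differences with age are day 110 minus day 90, and differences between breeds are MS minus LW. A probe was called where its limma adjusted p did not exceed 0.01 and the log2 difference reached 0.5 in either direction, with p-values adjusted over all 40515 probes.

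On single arrays, 51.2 to 87.6% of probes stood well above background. Enterocyte markers were present, with a mean log2 signal over 8 genes of 4.54 to 6.04 in the 8 groups. In 1 array, that of MS fetus 632 at day 110, this mean was 0.94 against 4.39 to 6.21 in the other MS fetuses of that age, and its stroma markers averaged 4.13 against 2.10 to 3.51. Its median correlation with the arrays of its group, 0.905, was the lowest of all 63. LW fetus 484 (day 90) had the second lowest, 0.925, with macrophage markers at -0.43 against -2.09 to -1.24 in its group and stroma markers at 2.47 against 3.22 to 3.69. MSLW fetus 450 (day 90) had macrophage markers at -2.74 against -1.82 to -1.40 and lymphocyte markers at -4.45 against -3.27 to -2.48. For the complement genes named above, results that rest on these arrays are given with and without them where both were fitted. In jejunum RNA of mixed cells, fewer cells of a type and less RNA per cell cannot be told apart.

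The array probes are 60 bases long. Those shown here belong to genes called in at least 1 comparison of age or breed, though not to all such genes. They hold at least 1 forward reading frame with no stop, as 19 of the 25 did. Both C5 probes have a stop in every forward frame and are named only.
C3 A_72_P165601: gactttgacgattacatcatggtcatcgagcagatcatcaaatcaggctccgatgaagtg
CFI A_72_P251667: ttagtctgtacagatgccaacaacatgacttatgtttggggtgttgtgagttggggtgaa
C7 A_72_P147041: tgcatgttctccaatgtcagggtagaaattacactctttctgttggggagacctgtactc
C7 O14536: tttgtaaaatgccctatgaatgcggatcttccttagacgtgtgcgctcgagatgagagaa
C9 probe: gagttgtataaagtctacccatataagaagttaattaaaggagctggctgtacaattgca
The C7 probes share no long run and target different stretches of the transcript. Probes of a gene can also repeat each other. C3 probes O9203 and A_72_P745528 are the same 60 bases, and C3 probes A_72_P737664 and A_72_P742730 share the run of 39 bases set in capitals below.
C3 A_72_P737664: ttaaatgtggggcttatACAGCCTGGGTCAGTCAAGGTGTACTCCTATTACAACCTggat
C3 A_72_P742730: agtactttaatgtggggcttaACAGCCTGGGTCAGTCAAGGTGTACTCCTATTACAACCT
The identical pair differed by an SD of 0.053 on the log2 scale over the 63 arrays, which is a measure of the array's own error at that brightness. The 2 brightest C1S probes share 58 bases. Counts of probes therefore overstate the number of independent measurements, and genes are counted beside them.

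**Figure D1:**
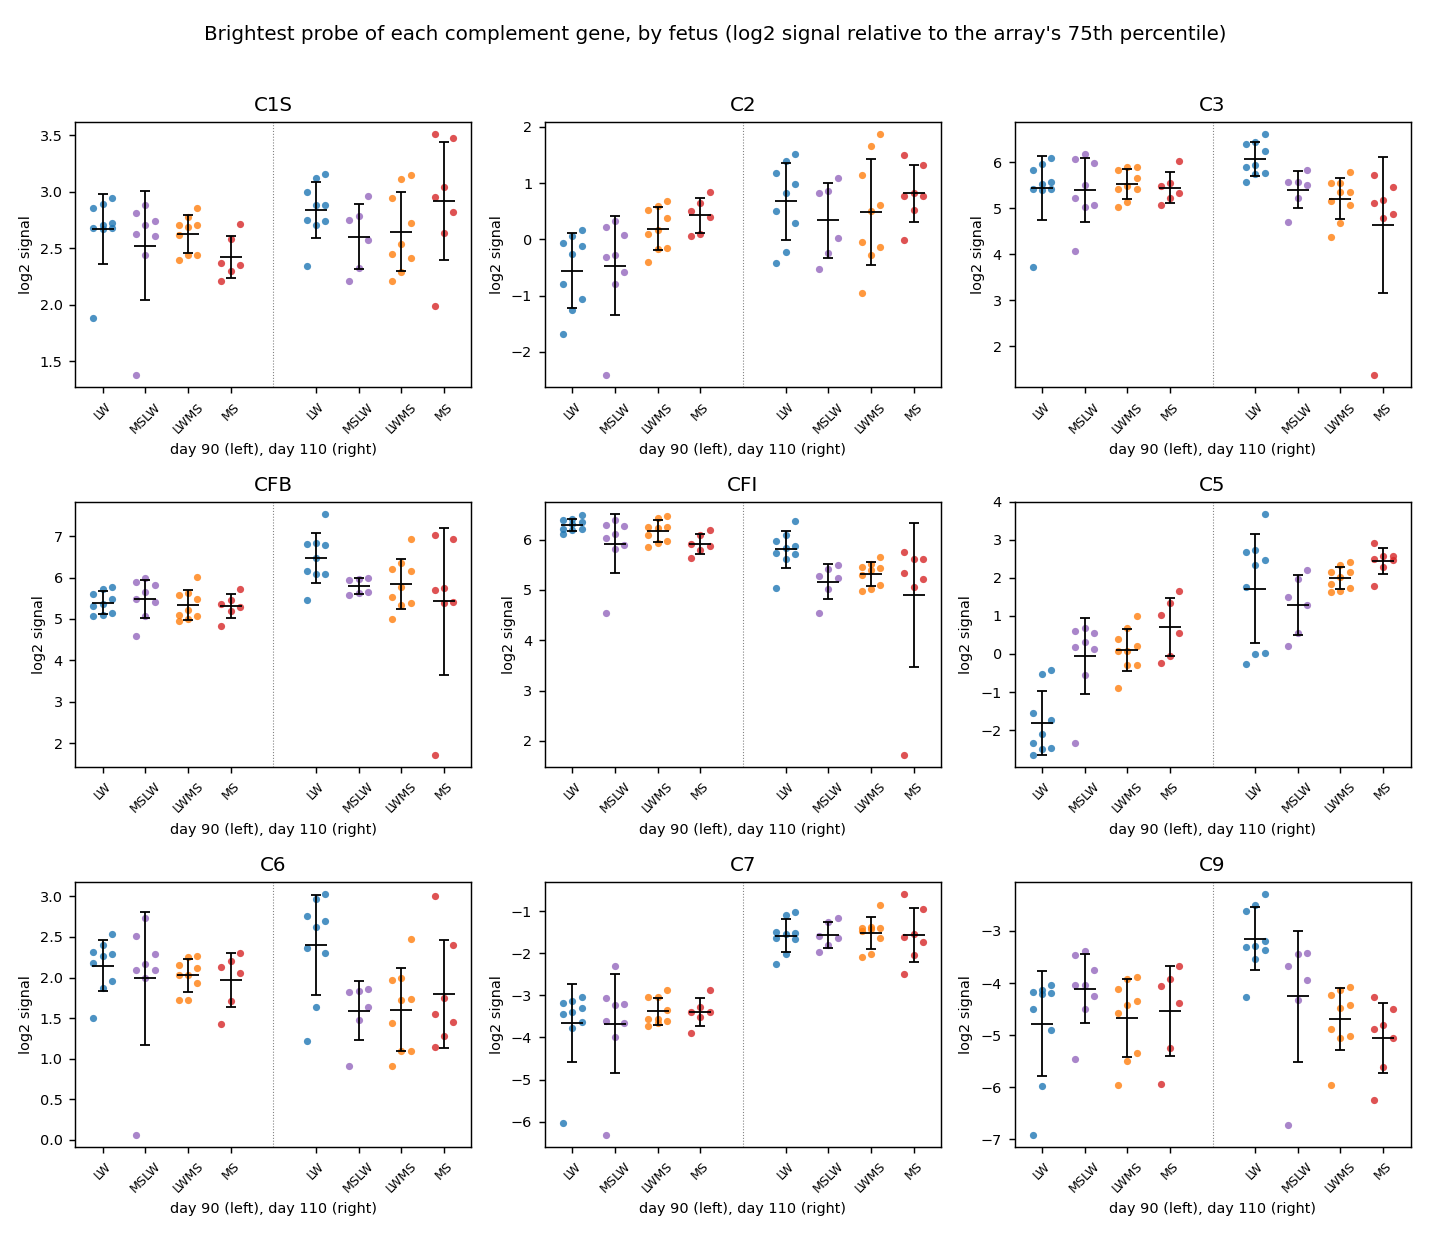
Log2 signal of the brightest probe of each of the 9 complement genes, set against the array's own 75th percentile, for each fetus (points) by genotype at day 90 (left of each panel) and day 110 (right), with the group mean and SD (black). C7 was higher in each genotype at day 110 than at day 90 with no overlap, C5 in LW at day 90 lay below MS, and MS fetus 632 was the lowest point of C3, CFB and CFI at day 110.

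Averaged over the 4 genotypes, C5, C7 and C2 rose between day 90 and day 110 and CFI fell. The change called 8 of 25 probes (32%), against 13.8% of all probes tested. The 6 that rose (24%, against 6.07% of all probes) were both probes of C5, both of C7 and 2 of 3 of C2, and the 2 that fell (8%, close to the 7.71% of all probes) were both CFI probes. The median change was 0.16 on the log2 scale over the 25 probes and -0.02 over all probes. C1S, C3, C6, C9 and CFB did not pass this test. The F test over the 8 groups called 8 probes, of C2, C5, C7, C9 and CFI (32%, close to the 28.7% of all probes).

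C2, the classical-branch protease that cleaves C3 once bound to C4, rose with age over the 4 genotypes. Its log2 signal ran from -1.69 to 0.17 (median -0.26) in LW, -2.42 to 0.32 (median -0.29) in MSLW, -0.39 to 0.68 (median 0.17) in LWMS, and from 0.05 to 0.84 (median 0.46) in MS, at day 90. At day 110 it ran from -0.42 to 1.52 (median 0.83), -0.53 to 1.09 (median 0.42), -0.94 to 1.87 (median 0.50) and -0.01 to 1.501 (median 0.78) in the same order. The ages overlapped in every genotype. C2 rose by 0.68 ± 0.17 (SE, adjusted p = 0.000934) over the 4 genotypes, or 1.60-fold, and day 110 was higher within each of the 8 slides, by 0.09 to 1.497. At day 90 MS was higher than LW by 0.98 ± 0.35, which did not pass (adjusted p = 0.0808). In LW alone C2 rose by 1.23 ± 0.31 (adjusted p = 0.00521), but without LW fetus 484 the difference was 1.09 with an adjusted p of 0.0165 (range over all alternatives 4.97e-05 to 0.0227). Its second probe rose by 0.61 over the 4 genotypes. The third, A_72_P710308, was well above background on 52 of the 63 arrays and did not pass the test.

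C1S, the protease of the first classical-branch complex, differed little. The group means of its brightest probe lay between 2.42 and 2.92, its changes with age between 0.02 (LWMS) and 0.50 (MS), and no probe of the 4 passed a test in any comparison. CFB, the alternative-branch counterpart of C2, rose in neither test at the thresholds used. Its log2 signal ran from 5.06 to 5.78 in LW at day 90 and from 5.45 to 7.54 in LW at day 110, a difference of 1.07 ± 0.33 (adjusted p = 0.0256). Over the 4 genotypes the difference was 0.50 ± 0.18 (adjusted p = 0.0212). Without MS fetus 632 both were called. CFB then rose by 0.66 ± 0.12 over the 4 genotypes (adjusted p = 1.27e-05) and by 1.07 ± 0.22 in LW (adjusted p = 0.000455), with ranges over all alternatives of 1.27e-05 to 0.0587 and 2.48e-05 to 0.0698. In RefSeq's pig annotation C2 and CFB are neighbours on chromosome 7.

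CFI, the inhibitor, fell. Its log2 signal at day 90 ran from 6.11 to 6.48 (median 6.30) in LW, 4.54 to 6.39 (median 6.08) in MSLW, 5.85 to 6.47 (median 6.23) in LWMS, and from 5.63 to 6.18 (median 5.89) in MS. At day 110 it ran from 5.03 to 6.37 (median 5.83), 4.53 to 5.48 (median 5.25), 4.97 to 5.65 (median 5.39) and 1.72 to 5.74 (median 5.33). LWMS fetuses at day 110 all lay below those at day 90, and the other genotypes overlapped. At the second probe the ages did not overlap in LWMS and in MS. Over all probes tested, the ages did not overlap in 3.05% for LWMS and 2.19% for MS. CFI fell by 0.78 ± 0.14 on the log2 scale (adjusted p = 1.01e-05) over the 4 genotypes, 1.72-fold, with the second probe at -0.71, and day 110 was lower within each of the 8 slides. The fall was 0.65 without MS fetus 632. No single genotype passed the test, with differences of -0.49 (LW), -0.76 (MSLW), -0.85 (LWMS) and -1.01 (MS). After removal of group means CFI correlated with the liver and fetal plasma protein markers (r = 0.61 over 63 arrays), the enterocyte markers (0.58) and the stroma markers (-0.44). These values rest on MS fetus 632, whose liver markers averaged -4.81 against -2.26 to -1.47 in its group. Without it they were 0.13, 0.05 and -0.16. Of the 9 liver and plasma protein genes 5 fell with age (AFP, APOH, FGB, SERPINA1 and TF) and none rose. Among all probes tested 7.71% fell and 6.07% rose. The part of these genes in the fall of CFI was not tested.

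C5, whose cleavage releases an attractant for leukocytes and starts the membrane pore, rose with age. At day 90 its log2 signal ran from -2.66 to -0.41 (median -2.10) in LW, -2.34 to 0.69 (median 0.24) in MSLW, -0.89 to 0.999 (median 0.09) in LWMS, and from -0.24 to 1.65 (median 0.80) in MS. At day 110 it ran from -0.25 to 3.68 (median 2.35), 0.22 to 2.20 (median 1.40), 1.63 to 2.43 (median 2.03) and 1.79 to 2.93 (median 2.51). In LW, LWMS and MS every fetus at day 110 lay above every fetus at day 90, while MSLW overlapped. Over all probes tested, the ages did not overlap in 1.23% for LW, 3.05% for LWMS, 2.19% for MS and 4.28% for MSLW. At the second, dimmer probe LWMS alone showed no overlap. C5 rose by 2.12 ± 0.21 (adjusted p = 1.83e-12) over the 4 genotypes, a fold of 4.35, and its second probe by 1.66 ± 0.18. Day 110 was higher within each of the 8 slides, by 1.31 to 3.23.

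The size of the C5 change differed in value between genotypes. It rose by 3.53 ± 0.39 (adjusted p = 1.25e-09) in LW, 11.5-fold, and by 1.89 ± 0.39 (adjusted p = 0.000239) in LWMS. The difference was 1.34 ± 0.44 (adjusted p = 0.0367) in MSLW and 1.73 ± 0.46 (adjusted p = 0.0111) in MS, neither of which passed. MS kept this outcome in only 7 of 14 alternatives, with adjusted p from 0.00433 to 0.0183 over all of them. Among those that passed were the fits without MS fetus 632 (adjusted p = 0.00855) and without MSLW fetus 450 (0.00567). The breed by age interaction of C5 was -1.80 ± 0.60 with an adjusted p of 0.379, and the test of all 4 genotypes for different changes had an adjusted p of 0.259, so the difference between genotypes did not pass. At day 110 LW was spread widely: fetuses 559, 469 and 557 were at -0.25, 0.01 and 0.03 and the other LW fetuses at 1.76 to 3.68. These 3 fetuses were hybridised on 3 different slides, and their enterocyte markers averaged 3.90, 5.89 and 4.26, within the 2.68 to 6.21 of the others. Fetus 469 had the lowest share of probes above background of all 63 arrays (51.2%) and the highest macrophage (0.16) and liver marker (-1.42) means of its group. The part of these in the low C5 values was not tested.

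C7, which anchors the forming pore in the membrane, rose in each genotype. At day 90 its log2 signal ran from -6.04 to -3.05 (median -3.38) in LW, -6.31 to -2.30 (median -3.42) in MSLW, -3.72 to -2.87 (median -3.56) in LWMS, and from -3.89 to -2.87 (median -3.40) in MS. At day 110 it ran from -2.25 to -1.01 (median -1.54), -1.96 to -1.16 (median -1.62), -2.09 to -0.85 (median -1.42) and -2.49 to -0.59 (median -1.62). No fetus at day 110 was as low as any fetus of its own genotype at day 90, which held for 0.153% of all probes in either direction. C7 rose by 1.96 ± 0.16 (adjusted p = 3.33e-15) over the 4 genotypes, a fold of 3.90, and its second probe by 2.12. The rise was 2.08 ± 0.30 in LW, 2.10 ± 0.34 in MSLW, 1.86 ± 0.30 in LWMS and 1.82 ± 0.35 in MS, all of which passed the test, and the test for different changes across genotypes had an adjusted p of 0.991. At the second probe the ages overlapped in LWMS. The lowest points, LW fetus 484 and MSLW fetus 450, enlarged the change, and without fetuses 484, 450 and 632 it was 1.83 (adjusted p = 6.83e-22). With normexp correction the rise was 1.28 over the 4 genotypes and 1.38 in LW, both called. On 3 of the 63 arrays this probe was not well above background. In the order of group means, the step from LWMS at day 90 (-3.38) to LW at day 110 (-1.58) was the one step between neighbours whose ranges did not overlap, and for the brightest probes of the other 8 genes all neighbouring groups overlapped. Such a step was found in 0.365% of all probes tested.

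C6 and C9, the other pore subunits measured, did not change over the 4 genotypes beyond the threshold, at -0.18 ± 0.13 (adjusted p = 0.275) for C6 and 0.24 ± 0.20 (adjusted p = 0.377) for C9. C3, the shared substrate of both branches, was at -0.12 ± 0.17 (adjusted p = 0.613), and this value turned to 0.02 without MS fetus 632. C9 rose in LW, by 1.63 ± 0.37 (adjusted p = 0.00178). The probe was well above background on 6 of 9 LW arrays at day 90, and the rise was 0.93 with normexp correction and 0.88 with the authors' values, both called. C9 had values of -0.02 in LWMS, -0.15 in MSLW and -0.52 in MS that did not pass. C9, C7 and C6 lie near one another on chromosome 16 in RefSeq's pig annotation, with 6 genes between C9 and C7 and 1 between C7 and C6. In single genotypes all calls among the members were higher at day 110. In LW the change with age called 6 probes (24%), of C2, C5, C7 and C9, against 4.76% of all probes in either direction and 2.23% upwards. In LWMS it called 4 (16%), of C5 and C7, against 9.86% and 4.18%. In MSLW it called the 2 C7 probes (8%), against 5.43% and 2.45%, and in MS the same probes (8%), against 3.12% and 1.62%.

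**Figure D2:**
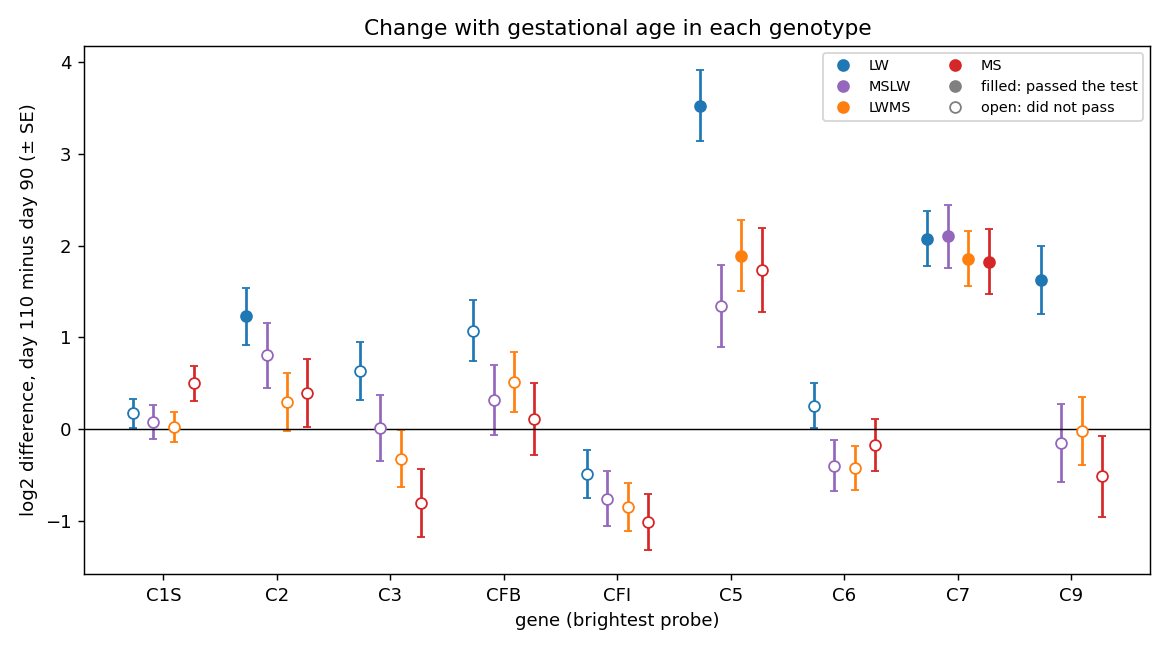
Log2 difference between day 110 and day 90 (± SE) of the brightest probe of each gene in LW, MSLW, LWMS and MS fetuses, filled where the adjusted p was at most 0.01 and the absolute difference at least 0.5. C7 passed in all 4 genotypes, at 1.82 to 2.10, and C5 in LW and LWMS, while C9 passed in LW alone.

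Between the pure breeds, C5 was higher in MS at day 90, and C3 and C9 were lower in MS at day 110. At day 90, 2 of 25 probes (8%), both of C5 and higher in MS, were called, against 3.58% of all probes and 1.36% in that direction. At day 110, 7 probes (28%), all 6 of C3 and that of C9, were called, against 4.99% of all probes, and all were lower in MS (3.15% of all probes). The median difference at day 110 was -0.60 over the 25 probes and 0.02 over all probes.

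For C5 at day 90, MS fetuses ran from -0.24 to 1.65 and LW fetuses from -2.66 to -0.41, with no overlap, as for 2.33% of all probes. MS was higher by 2.53 ± 0.43 (adjusted p = 2.91e-05), a fold of 5.76, and by 2.004 at the second probe. In the 6 slides that held both breeds at that age MS was higher each time, by 0.98 to 3.75. At day 110 the difference was 0.73 ± 0.41 (adjusted p = 0.292) and the breeds overlapped.

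For C9 at day 110, LW fetuses ran from -4.26 to -2.28 (median -3.28) and MS fetuses from -6.24 to -4.27 (median -4.89), with no overlap, as for 1.66% of all probes. The MSLW fetuses ran from -6.73 to -3.43 (median -3.81) and the LWMS fetuses from -5.96 to -4.07 (median -4.47), between the medians of the pure breeds. At day 90 the 4 genotypes ran from -6.91 to -3.39 and overlapped. C9 was lower in MS at day 110 by a log2 difference of -1.90 ± 0.40 (adjusted p = 0.000588), 3.73-fold, and was lower in each of the 5 slides that held both breeds. The probe was dim: it was well above background on 8 of 9 LW and 4 of 7 MS arrays at that age, and with a background correction by normexp, which compresses dim signals, the difference was -0.75, and with the authors' values -1.05. Its breed by age interaction, -2.14 ± 0.58, had an adjusted p of 0.214.

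For C3 the breeds overlapped at both ages. At day 90 its log2 signal ran from 3.71 to 6.08 (median 5.52) in LW, 4.08 to 6.18 (median 5.36) in MSLW, 5.02 to 5.89 (median 5.47) in LWMS, and from 5.06 to 6.02 (median 5.40) in MS. At day 110 it ran from 5.57 to 6.61 (median 5.93), 4.70 to 5.84 (median 5.53), 4.38 to 5.79 (median 5.34) and 1.37 to 5.71 (median 5.12). The MS mean at day 110 was pulled down by fetus 632, at 1.37, with the next lowest at 4.78. The difference was -1.42 ± 0.33 (adjusted p = 0.00238) with this fetus and -0.88 ± 0.25 (adjusted p = 0.0144, range over all alternatives 0.000363 to 0.0179) without it, and the count of probes called fell from 7 to 1, that of C9. Without fetuses 484, 450 and 632 the difference of C3 was again called, at -0.88 ± 0.20 (adjusted p = 0.00141), and the count was 7. MS was lower in 4 of the 5 slides that held both breeds. CFB and CFI were affected by the same fetus, with differences at day 110 of -1.05 and -0.91 with it and -0.43 and -0.37 without it, none of which passed. C6 at day 110 was at -0.60 ± 0.26 (adjusted p = 0.134) and was called with array weights, at -0.93 (adjusted p = 0.00116, range over all alternatives 0.00116 to 0.335), and C1S, C2 and C7 were within 0.15 of 0 there.

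**Figure D3:**
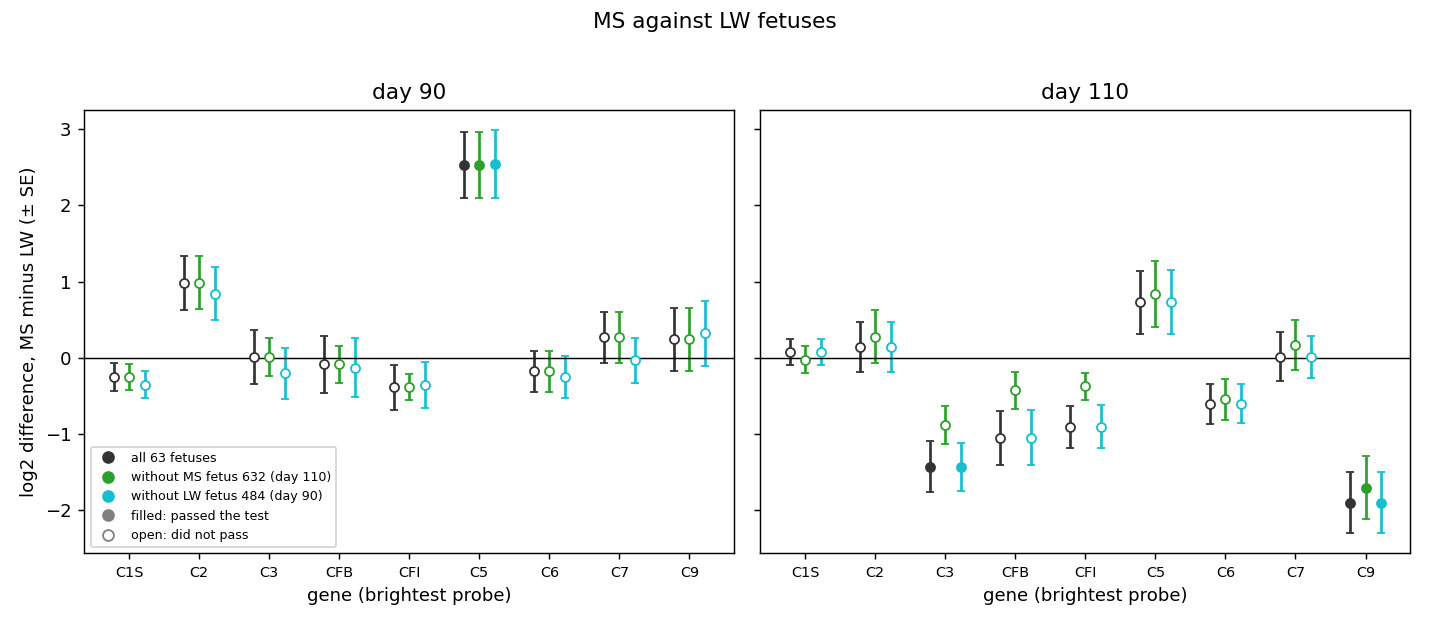
Log2 difference between MS and LW fetuses (± SE) at day 90 and day 110 for the brightest probe of each gene, with all 63 fetuses (black), without MS fetus 632 (green) and without LW fetus 484 (cyan), filled where the test was passed. C5 at day 90 and C9 at day 110 passed in all 3 sets, and C3 at day 110 moved from -1.42 to -0.88 without fetus 632.

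No member probe passed the breed by age interaction (7 of 40515 probes did, 0.0173%) or the test of different changes across the 4 genotypes (0.0222%). At an unadjusted p under 0.05, limma called 9 (36%) and 5 (20%) of the 25 probes, respectively, against 6.61% and 7.45% of all probes. The 9 were all 6 probes of C3, both of C5 and that of C9. In each the change in MS minus the change in LW was below 0. The 36% therefore stands for C3, C5 and C9 alone, and C3 probes repeat each other in part. The change of C3 with age in MS was -0.80 with all fetuses and -0.26 without MS fetus 632. The C9 probe passed the breed by age interaction with array weights (adjusted p = 0.0097) and with normexp correction (adjusted p = 0.00274).

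By the breed of the sow, averaged over both ages, C5 and C2 were higher and C9 and 1 probe of C6 lower in fetuses of MS sows, at an adjusted p under 0.05. Sow breed differs between litters only, and litter mates counted as independent here, so these p-values can be too small. The 5 probes called are 20% of the 25, close to the 16% of all probes. The 3 higher with MS sows (12%) stand beside 7.26% of all probes, and the 2 lower ones (8%) beside 8.71%. C5 was higher by 1.03 ± 0.21 (adjusted p = 0.000297), a fold of 2.04, with its second probe at 0.91. C2 was higher by 0.48 ± 0.17 (adjusted p = 0.0408), C9 lower at -0.66 ± 0.20 (adjusted p = 0.0175) and C6 probe A_72_P294004 lower at -0.38 ± 0.13 (adjusted p = 0.0301), while the brightest C6 probe was at -0.18 and did not pass. By the breed of the sire no member probe was called by limma, against 6.95% of all probes, and 7 (28%) had an unadjusted p under 0.05, against 18.9% of all probes. The C5 value was 0.60 ± 0.21 (adjusted p = 0.0747) and the CFI value -0.42 ± 0.14 (adjusted p = 0.0573). Without MSLW fetus 450 the brightest C5 probe passed for the sire, and without MS fetus 632 both CFI probes did.

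Of 40 other genes of complement activation, regulation and reception, 27 were on the array by name and 22 were tested. By their brightest probes, over the 4 genotypes C4BPA, CD46, CFP and VSIG4 rose with age and C4 and COLEC11 fell. Among all probes tested 13.8% were called for age, with 6.07% higher and 7.71% lower at day 110. C4BPA, a cofactor of CFI in the cleavage of C4, rose by 1.76 ± 0.23 (adjusted p = 1.19e-08), and CD46, a membrane cofactor of CFI, by 1.25 ± 0.14 (adjusted p = 1.46e-10). In MS at day 110 the C4BPA probe ran from -2.92 to 3.82 (median 3.61). These other genes were not refitted with fetuses left out. VSIG4, a macrophage receptor for fragments of C3, rose by 0.81 ± 0.10, and the macrophage markers CD163 and LYZ also rose, 2 of 7 in that list, whose part was not tested. CFP, the stabiliser of the alternative-branch enzyme, rose by 0.53 ± 0.16. C4, the partner of C2, fell by 0.73 ± 0.12, and COLEC11, a lectin that starts a further branch, fell by 0.68 ± 0.15. The brightest probes of the other 16 did not pass, among them C1R, the partner of C1S, at 0.31 ± 0.10 (adjusted p = 0.0139), the regulators SERPING1, CD55 and CD59, and C5AR1, the receptor of the C5 fragment, at 0.14 ± 0.11. For 3 of these genes dimmer probes did pass: 6 of 8 probes of VTN, an inhibitor of the pore, were lower at day 110 (-0.50 to -1.01), and 1 of 2 probes each of the lectins FCN1 (0.98) and FCN2 (0.64) was higher, so their probes disagreed.

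Between breeds, CD46 was higher in MS at day 90 (1.60 ± 0.29, adjusted p = 8.77e-05) and at day 110 (1.76 ± 0.28, adjusted p = 5.88e-06). MASP1, a protease of the lectin branch, was higher in MS at day 110 by 2.06 ± 0.35 (adjusted p = 1.93e-05), with 2 of its 3 tested probes called. Its brightest probe was dim, well above background on 4 of 9 LW and 7 of 7 MS arrays at that age. The size of its difference is therefore uncertain. None of the other 20 genes tested passed for either age. Among all probes tested 3.58% were called between the breeds at day 90 and 4.99% at day 110.

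**Figure D4:**
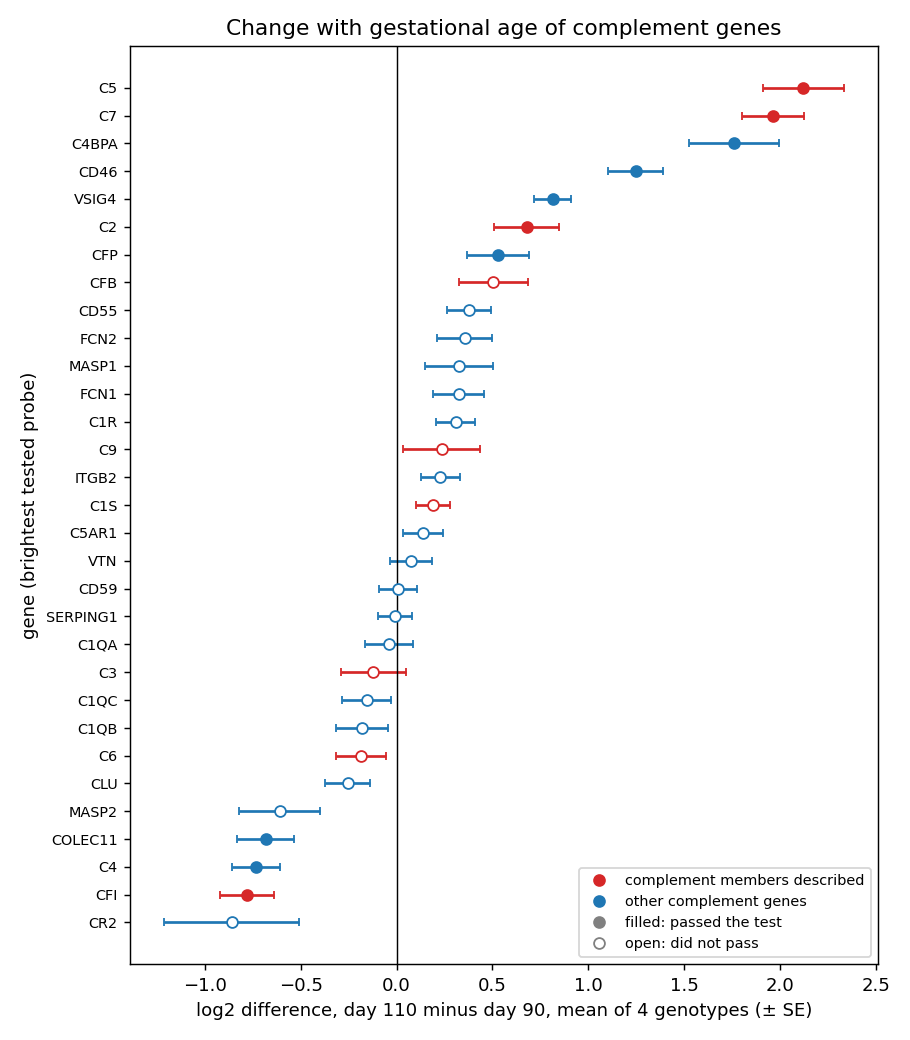
Log2 difference between day 110 and day 90 over the 4 genotypes (± SE) of the brightest tested probe of the 9 complement members (red) and 22 other complement genes (blue), filled where the test was passed. C5, C7, C4BPA and CD46 had the 4 highest values, and CFI, C4 and COLEC11 the lowest of those that passed.

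Across the 63 arrays, the genes whose probes varied most like a member are given as a description, since the points share age and genotype groups. They were C1R (r = 0.84) and SERPING1 (0.80) for C1S, AQP1 (0.76) for C2, PMEL (0.88) and HABP2 (0.84, and 0.68 without MS fetus 632) for C3, SMPDL3B (0.81), C4BPA (0.80) and DIO1 (0.80) for C5, and SMC4 (0.85) for C6. For C7 they were GHR (0.89), KLF9 (0.87) and CLEC3B (0.86), for CFB BPI (0.88), for CFI RNASEH2B (0.86) and for C9 NDUFAB1 (0.65). Among the members and after removal of group means, C3 and CFB varied together (r = 0.73), as did C3 and CFI (0.65), but without MS fetus 632, which was lowest in all of them, these were 0.42 and 0.18. CFB and CFI weakened the most, from 0.63 to 0.03, and some pairs of lower r weakened too, such as C9 and CFI (0.16 to -0.03). Other pairs rose, and C1S and C3 moved from 0.22 to 0.58. Over all pairs of members without this fetus, r ran from -0.03 (C9 and CFI) to 0.69 (C2 and CFB). C1S followed the stroma markers (0.74, and 0.73 without MS fetus 632), which was not particular to it. Without that fetus C6 (0.69), C3 (0.68), CFB (0.62), C2 (0.61) and C7 (0.54) followed them too. C9 was then at 0.39, C5 at 0.02 and CFI at -0.16. With the endothelium markers C3 was at 0.82, C6 at 0.67 and C1S at 0.66 without that fetus. C5 followed no marker list beyond an absolute r of 0.37.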

How the data were processed

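One-colour Agilent porcine arrays were hybridised with jejunum RNA from 63 males, 7 or 8 arrays on each of 8 slides. The authors deposited the Agilent Feature Extraction 10.10.1.1 output of each array, which holds raw and background-corrected linear intensity per spot. They also deposited log2 values of 39446 probes, used as an alternative. The log2 of the corrected intensity minus the 75th percentile of the array was taken. Control and outlier spots were left out, no spot was saturated, and spots of a probe were averaged. A probe was tested if at least 75% of the arrays in 1 or more groups had it well above background (40515 of 60305), so the filter sets how many tests the adjustment covers. Subtracting background makes the size of changes of dim probes uncertain.

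Means of 8 groups were fitted with limma 3.58.1 in R 4.3.3 (data.table version 1.17.8, jsonlite 2.0.0), with two-sided p-values adjusted by Benjamini-Hochberg. The F test and both interactions were called at an adjusted p of 0.01, differences by sow or sire breed at 0.05, and age and MS against LW differences at 0.01 where the log2 difference also reached 0.5 in size. A random sow effect, part of the model in the paper, was not fitted here. The members and the gene lists were chosen with earlier results of these data known, and 1 further complement gene is not reported here. Each gene is named through its brightest tested probe, and all probes of the members are counted. Gene names are those of the array files; 7 accessions of member probes matched RefSeq symbols. The array files name no genome build, so no coordinates are given, and the place of the probes in their transcripts was not analysed here. The steps were tested on simulated data. Alternatives were the authors' values, normexp correction (offset 50), quantile normalization, median centring, other filters on dim probes, the slide as a block, array weights, the mean of a gene's probes, no minimum difference, and fetuses left out; leaving out fetuses 484, 450 and 632 was chosen after seeing the data. The number of arrays limits the precision.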

Additional observations from a re-analysis of the deposited data

Results flagged for a closer look

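In 13 of 72 groups of the brightest member probes, 1 fetus lay apart from the rest of its group at Dixon's 95% level. That level flags about 1 in 20 independent groups, but the 72 groups share the same arrays and are not independent. All flags but that of fetus 476 came from fetuses 450, 484 and 632. The share flagged over all probes was not computed, so the count is not a result about complement genes. All 13 were the lowest of their group. MSLW fetus 450 (day 90) was apart for C1S at 1.38 (nearest 2.44), C2 at -2.42 (nearest -0.79), C5 at -2.34 (nearest -0.55), C6 at 0.06 (nearest 1.99), C7 at -6.31 (nearest -4.00) and CFI at 4.54 (nearest 5.82). LW fetus 484 (day 90) was apart for C1S at 1.89 (nearest 2.67), C3 at 3.71 (nearest 5.39) and C7 at -6.04 (nearest -3.77). MS fetus 632 (day 110) was apart for C3 at 1.37 (nearest 4.78), CFB at 1.71 (nearest 5.40) and CFI at 1.72 (nearest 5.06). MSLW fetus 476 (day 110) was apart for C9 at -6.73 (nearest -4.32).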

How the results depend on the processing

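Of 630 values of single genes under alternatives, 586 kept their direction and side of the threshold, 18 newly passed, 4 no longer passed and 22 turned sign; of 163 counts of probes, 22 moved by more than 1.5 times. No paired analysis was possible because no fetus number is shared between groups and litter mates are not identified in the labels used. The slide was fitted as a block instead. The cause of these moves was not tested. Counts are of the 25 member probes, with the share of all probes called under the same setting. With array weights they were 20 for the F test (55.5% of all probes), 10 for age in LW (8.31%), 4 for age in MS (10.6%), 1 for breed by age (0.131%), 12 for the sow (32.6%) and 4 for the sire (15.5%). Without fetuses 484, 450 and 632 they were 17 for the F test (33.1%), 4 for age in MS (3.92%), 4 for age in MSLW (6.73%), 11 for the sow (24%) and 4 for the sire (8.32%). MS against LW at day 110 gave 1 with median centring (3.5%) and 1 without fetus 632 (5.41%). Normexp gave 1 for breed by age (0.0247%) and 1 for age by genotype (0.0444%). For the sow, quantile normalization gave 3 (12.8%) and the set without fetuses 484 and 469 gave 9 (19.7%). For the sire, the authors' values gave 2 (7.42%), quantile normalization 2 (6.63%), the slide block 1 (8.51%), without fetus 450 1 (7.05%) and without fetus 632 2 (7.44%). Over all probes, age called 3167 with normexp against 5583, and median centring called 1119 for age in LW and moved the median of all probes to 0.15 for MS against LW at day 110 and 0.12 for the sow.

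C2 for age in LW and C3 for MS against LW at day 110 were lost with median centring (adjusted p = 0.0227 and 0.0179) and without fetus 484 and 632, respectively. Beside those of C5, C6 and CFB given with their results, newly called were C2 for MS against LW at day 90 with array weights (adjusted p = 0.00796), and at day 110 CFB with array weights (0.00504) and CFI with the authors' values (0.00455) and quantile normalization (0.00509). Values that turned sign had all been within 0.27 of 0. For MS against LW at day 110 they were C1S with the authors' values (-0.0002), quantile normalization (-0.0171), array weights (-0.1039), without 632 (-0.0217) and without all 3 fetuses (-0.0217), C2 with the mean of its probes (-0.0528), and C7 with the slide block (-0.0755), array weights (-0.0975) and the mean of its probes (-0.038). At day 90 they were C3 with the authors' values (-0.0967), quantile normalization (-0.1127), median centring (-0.0133), the slide block (-0.1163), array weights (-0.0737), the mean of its probes (-0.0509) and without 484, 484 and 469, or all 3 fetuses (-0.2035), and C7 without the same fetuses (-0.03). C3 over the 4 genotypes turned to 0.0159 without 632.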
